A study of Mus musculus with 7 samples.

Results

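The genes described here are the 5 sodium-coupled phosphate transporters Slc34a1, Slc34a2, Slc34a3, Slc20a1 and Slc20a2, with the binding sites of the vitamin D receptor (VDR) around them. Sites were taken from chromatin immunoprecipitation with sequencing (ChIP-seq) peak lists, as peaks whose centre lay within 50 kb of a gene body on the mouse build mm9, and peaks of different libraries that overlapped were merged into regions. This gave 72 regions out of 87029 in the whole genome, 22 at Slc34a2, 15 each at Slc34a3 and Slc20a2, 11 at Slc20a1 and 9 at Slc34a1. No region belonged to more than 1 of the genes.

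Epithelium was detached with EDTA from the upper small intestine (duodenum with jejunum) of chow-fed wild-type mice at 8 weeks of age. They had been given 1,25(OH)2D3, the active vitamin D hormone, in a dose of 10 ng per g body weight (3 libraries), or vehicle (3 libraries), in both cases 1 h earlier. The series asks which genes the hormone-bound receptor targets in this tissue. Whether separate animals stand behind the libraries is not stated, and p-values cover only the spread between libraries. In tissue of many cells, a change in the share of cells with bound receptor and a change in binding per cell cannot be told apart.

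Phosphate from food enters the enterocyte through transporters of the brush border that use the sodium gradient. Slc34a2 encodes NaPi-IIb, the main transporter of this kind in the small intestine, and its relatives Slc34a1 (NaPi-IIa) and Slc34a3 (NaPi-IIc) are known for phosphate reabsorption in the kidney. Slc20a1 (PiT-1) and Slc20a2 (PiT-2) belong to a separate family that most cell types express. VDR, paired with the retinoid X receptor, binds direct repeats with a spacer of 3 bp (DR3), and the hormone is known to raise intestinal phosphate absorption.

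The following reference sequences (mm9) were chosen from the regions that meet the naming rule given with the processing. They lie at the centre of the region among these found in the most libraries at each gene, or hold a close match to a DR3. At Slc20a2, the regions at -49.6 and 131 kb from the start were in more libraries but did not meet the rule. Capitals mark the DR3 match, and sequences are read on the strand of that match.
Slc34a2, 4.92 kb downstream of the start, 1 mismatch (chr5:53434169-53434319, minus strand): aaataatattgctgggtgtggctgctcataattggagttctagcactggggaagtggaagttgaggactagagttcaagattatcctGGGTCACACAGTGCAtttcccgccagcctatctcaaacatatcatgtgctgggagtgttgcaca
Slc34a2, 14.9 kb upstream, 0 mismatches (chr5:53414354-53414504, minus strand): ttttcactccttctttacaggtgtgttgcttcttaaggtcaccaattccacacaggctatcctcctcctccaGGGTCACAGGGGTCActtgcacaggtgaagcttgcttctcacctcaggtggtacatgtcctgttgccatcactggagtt
Slc34a2, 64.0 kb downstream, 1 mismatch (chr5:53493196-53493346, minus strand): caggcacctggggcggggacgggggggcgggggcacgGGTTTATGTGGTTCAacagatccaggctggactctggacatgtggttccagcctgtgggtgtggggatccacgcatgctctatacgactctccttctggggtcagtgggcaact
Slc34a1, -29.3 kb from the start, 1 mismatch (chr13:55471663-55471813, plus strand): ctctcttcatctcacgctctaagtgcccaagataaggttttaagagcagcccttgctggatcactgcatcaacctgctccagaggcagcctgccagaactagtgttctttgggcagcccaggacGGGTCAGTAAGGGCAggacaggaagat
Slc34a1, 7.83 kb upstream, closest DR3 with 3 mismatches, not marked (chr13:55493109-55493259, minus strand): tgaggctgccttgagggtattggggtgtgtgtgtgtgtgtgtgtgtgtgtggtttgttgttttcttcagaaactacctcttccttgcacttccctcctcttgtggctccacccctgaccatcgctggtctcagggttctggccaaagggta
Slc34a3, 10.4 kb downstream, 1 mismatch (chr2:25079370-25079520, minus strand): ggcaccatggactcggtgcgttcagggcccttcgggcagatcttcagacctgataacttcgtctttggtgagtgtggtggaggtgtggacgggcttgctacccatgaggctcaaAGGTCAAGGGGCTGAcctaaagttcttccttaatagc
Slc20a1, 49.2 kb downstream, closest DR3 with 3 mismatches, not marked (chr2:129073638-129073822, minus strand): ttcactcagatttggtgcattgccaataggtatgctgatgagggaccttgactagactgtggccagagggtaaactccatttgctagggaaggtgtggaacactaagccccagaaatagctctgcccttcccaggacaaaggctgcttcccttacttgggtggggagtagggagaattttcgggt
Slc20a2, 0.686 kb downstream, 1 mismatch (chr8:23587783-23587933, plus strand): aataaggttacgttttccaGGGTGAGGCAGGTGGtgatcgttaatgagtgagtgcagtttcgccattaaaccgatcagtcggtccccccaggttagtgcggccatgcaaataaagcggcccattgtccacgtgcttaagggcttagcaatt

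The libraries held 17152461 to 66524392 sequenced tags with 1,25(OH)2D3 and 15991198 to 68560701 with vehicle, with replicate 3 the deepest in both groups. Peak lists ran to 25510 to 41722 entries for hormone libraries and 8756 to 48425 for vehicle libraries. The share of tags inside peaks was 11.9% to 18.96% with hormone and 2.58% to 8.10% with vehicle. A peak count near a gene can therefore depend on how long the list of its library is. The peak numbers of the 5 transporters are also given for lists of equal length, the first 8756 peaks of each. Densities, shares of all genes and the numbers at other genes are for whole lists unless stated. Regions found in at least 2 of 3 hormone libraries lay within 50 kb of all 10 enterocyte marker genes. The same held for 4 of 5 immune, 5 of 6 stromal and muscle, 3 of 4 enteroendocrine and 3 of 5 goblet and Paneth cell markers. The share of all genes with such a region is not given here. Receptor binding near a gene is no measure of its expression, so these counts do not give the cell types present.

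Over the 5 genes together, hormone-treated libraries had more VDR peaks than vehicle libraries. The numbers were 35, 45 and 52 peaks in 1,25(OH)2D3 replicates 1, 2 and 3, against 18, 20 and 33 in vehicle replicates 1, 2 and 3. All 3 hormone libraries lay above all 3 vehicle libraries. The means were 44 ± 8.54 with hormone and 23.7 ± 8.14 with vehicle (SD, n = 3 each), a difference of 20.3 peaks (exact two-sided permutation p = 0.1, the smallest that 3 against 3 can give). The shallow replicates 1 and 2 averaged 40 peaks with hormone and 19 with vehicle, and the deep replicates had 52 and 33. In lists of equal length the groups overlapped, at 19, 18 and 19 peaks for the hormone libraries and 18, 18 and 19 for the vehicle libraries. Per 10000 peaks of the library the values were 13.7, 14.8 and 12.5 for hormone and 20.6, 13.4 and 6.82 for vehicle, which also overlap. Within 20 kb of the genes the groups overlapped too, at 17, 26 and 29 peaks for hormone and 11, 11 and 19 for vehicle.

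Groups without overlap were common across the genome, so the members were read against all genes. Of 22225 protein-coding genes, 16.0% had more peaks in every hormone library than in any vehicle library and 0.0450% had fewer. Among the 5 transporters, 3 had more and 0 had fewer.

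Slc34a2 carried the most peaks of the 5 genes in every library. It had 13, 15 and 20 peaks in 1,25(OH)2D3 replicates 1, 2 and 3, against 9, 9 and 11 in vehicle replicates 1, 2 and 3. The groups did not overlap within 50 kb, and the deep library was the highest of each. The means were 16 ± 3.61 with hormone and 9.67 ± 1.15 with vehicle (SD, n = 3 each), a difference of 6.33 peaks (exact permutation p = 0.1). Without 1,25(OH)2D3 replicate 3 the difference was 4.33 peaks. Within 20 kb of the gene the groups overlapped, at 8, 10 and 11 peaks in hormone libraries and 6, 6 and 8 in vehicle libraries (exact permutation p = 0.2).

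The renal relatives Slc34a1 and Slc34a3 also had more peaks in each hormone library than in any vehicle library. Slc34a1 had 6, 8 and 7 peaks in 1,25(OH)2D3 replicates 1, 2 and 3, against 3, 4 and 4 in vehicle replicates 1, 2 and 3. Its means were 7 ± 1 with hormone and 3.67 ± 0.58 with vehicle (SD, n = 3 each, exact permutation p = 0.1), and within 20 kb its groups overlapped, at 3, 4 and 5 peaks in hormone libraries and 2, 3 and 2 in vehicle libraries. Slc34a3 had 9, 10 and 10 peaks in 1,25(OH)2D3 replicates 1, 2 and 3, against 4, 3 and 6 in vehicle replicates 1, 2 and 3. Its means were 9.67 ± 0.58 with hormone and 4.33 ± 1.53 with vehicle (SD, n = 3 each, exact permutation p = 0.1). Its groups were also apart within 20 kb, at 5 peaks in each hormone library and 3, 2 and 3 in the vehicle libraries. Within 20 kb, 2711 of the 22225 protein-coding genes were apart in that direction.

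At the PiT genes the groups overlapped. Slc20a1 had 4, 4 and 6 peaks in 1,25(OH)2D3 replicates 1, 2 and 3, against 2, 2 and 6 in vehicle replicates 1, 2 and 3 (exact permutation p = 0.6). The deep libraries of both groups were equal there, and the shallow ones had 4 peaks with hormone and 2 with vehicle. Without vehicle replicate 3 the difference was 2.67 peaks, against 1.33 with all libraries, and the groups no longer overlapped. Without 1,25(OH)2D3 replicate 3, vehicle replicate 1 or vehicle replicate 2 it was 0.667. Slc20a2 had 3, 8 and 9 peaks in 1,25(OH)2D3 replicates 1, 2 and 3, against 0, 2 and 6 in vehicle replicates 1, 2 and 3 (exact permutation p = 0.2). Its lowest hormone library, replicate 1, lay below the deep vehicle library. The difference there was 4 peaks with all libraries and 2.67 without vehicle replicate 1. Without 1,25(OH)2D3 replicate 1 it was 5.83 and without vehicle replicate 3 it was 5.67, and in both cases the groups no longer overlapped.

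**Figure D1:**
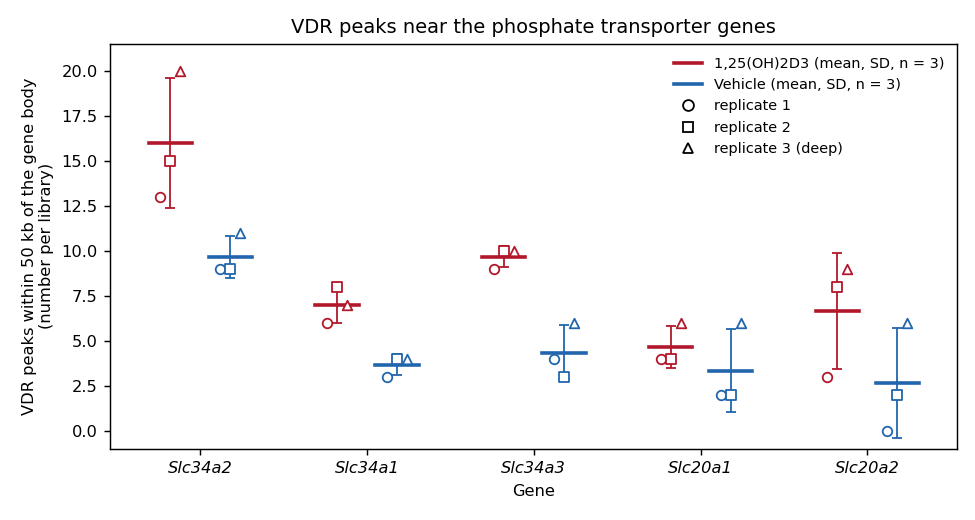
VDR peaks within 50 kb of each gene body, as number per library, for 1,25(OH)2D3 (red) and vehicle (blue); symbols are single libraries and bars the mean and SD (n = 3). The groups are apart at Slc34a2, Slc34a1 and Slc34a3 and overlap at Slc20a1 and Slc20a2, where the deep vehicle library has 6 peaks.

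The median difference over the 5 genes was 4 peaks per library, against 0.667 over all genes. These differences were not scaled to the number of peaks at a gene. All-gene medians were 2.33 peaks with hormone and 1.33 with vehicle, and the means of each member lay above them, at 16 and 9.67 for Slc34a2. Whether the members differ more than other genes with as many peaks was not tested. A difference at least as large as that of Slc34a2 was found at 1.87% of all genes, and the corresponding share was 4.06% for Slc34a3, 10.3% for Slc20a2, 15.5% for Slc34a1 and 43.0% for Slc20a1. After Benjamini-Hochberg adjustment over all genes, the exact permutation p was 0.622 for the 3 Slc34 genes, 0.826 for Slc20a2 and 1 for Slc20a1, and 0.622 was also the smallest over all genes. No gene of the genome had an unadjusted p under 0.05, which the exact permutation test cannot give at 3 against 3.

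In lists of equal length, none of the 5 genes had more peaks in every hormone library than in any vehicle library, as 899 of the 22225 protein-coding genes had. In the first 8756 peaks of each library, Slc34a2 had 11, 10 and 12 peaks in the hormone libraries and 9, 9 and 10 in the vehicle libraries, so that the groups touched at 10. Slc34a3 turned round, at 1, 2 and 2 peaks in the hormone libraries and 4, 3 and 3 in the vehicle libraries. The share of all genes with fewer peaks in every hormone library in such lists is not given here. Slc34a1 had 3, 4 and 3 with hormone and 3, 3 and 2 with vehicle. The PiT genes overlapped as well, Slc20a1 at 3, 2 and 2 in hormone libraries and 2 in each vehicle library, and Slc20a2 at 1, 0 and 0 in hormone libraries and 0, 1 and 2 in vehicle libraries. Per 10000 peaks of the library, Slc34a2 had 5.10, 4.94 and 4.79 with hormone and 10.3, 6.05 and 2.27 with vehicle, so the hormone libraries lay inside the range of the vehicle libraries. In the first 50% of each list Slc34a2 stayed apart (12, 14 and 18 with hormone and 9, 9 and 10 with vehicle), as did Slc34a3 (7, 8 and 9 with hormone and 3, 3 and 6 with vehicle). With these shortened lists, 1785 of the 22225 genes were apart in that direction. In that setting the groups overlapped for the 5 genes together, at 27, 32 and 39 in hormone libraries and 17, 16 and 30 in vehicle libraries, and for Slc34a1, at 4 in each hormone library and 3, 2 and 4 in vehicle libraries. What HOMER value orders the lists is not given in the sources used here.

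**Figure D2:**
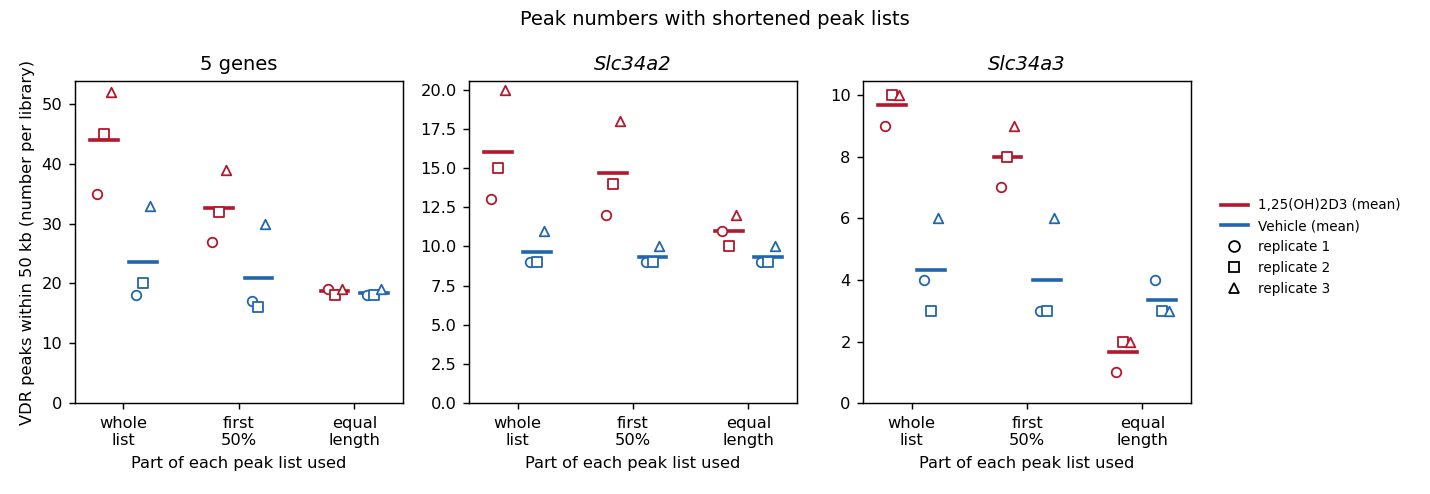
VDR peaks within 50 kb (number per library) for the 5 genes together, Slc34a2 and Slc34a3, with whole lists, the first 50% of each list and the first 8756 peaks of each; red is 1,25(OH)2D3, blue vehicle, symbols are libraries and bars means. With lists of equal length the 5-gene totals are 18 or 19 in every library, and at Slc34a3 the hormone libraries lie below the vehicle libraries.

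Per length of window, binding was densest around Slc34a2 with and without hormone. Its window of 133.6 kb held 11.98 ± 2.70 peaks per 100 kb in hormone libraries and 7.24 ± 0.86 in vehicle libraries (SD, n = 3 each), against medians of 1.81 and 1.11 over all protein-coding genes. Only 13 of the 22225 genes (0.0585%), Slc34a2 included, were as dense with hormone, and 23 (0.103%) with vehicle; neighbouring genes share peaks in this count. The next in order was Slc34a3, with 9.17 ± 0.55 peaks per 100 kb with hormone and 4.11 ± 1.45 with vehicle. Slc34a1 followed at 6.08 ± 0.87 and 3.19 ± 0.50, then Slc20a1 at 4.14 ± 1.02 and 2.95 ± 2.05, and Slc20a2 at 3.46 ± 1.67 and 1.38 ± 1.58, with hormone first in each pair. With hormone, the libraries of Slc34a2 (9.73 to 15.0 per 100 kb) lay just above those of Slc34a3 (8.53 to 9.48), and these above Slc34a1 (5.22 to 6.95). Slc34a1 and Slc20a1 (3.54 to 5.32) overlapped, as did Slc20a1 and Slc20a2 (1.56 to 4.67). With vehicle, Slc34a2 (6.74 to 8.23) lay above all other members, which overlapped one another in order.

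**Figure D3:**
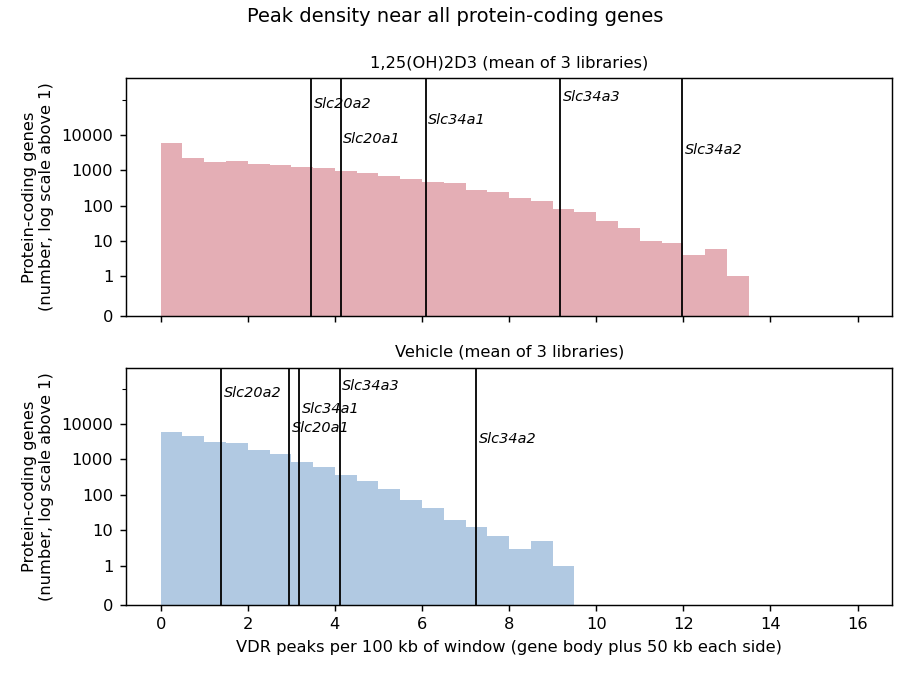
Distribution of VDR peak density (peaks per 100 kb of gene body plus 50 kb on each side, mean of 3 libraries) over 22225 protein-coding genes, with 1,25(OH)2D3 above and vehicle below; bars count genes on a scale that is logarithmic above 1, the last bar includes all denser genes, and lines mark the transporters. Slc34a2 lies in the far tail in both groups, at 11.98 and 7.24.

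The surroundings of Slc34a2 (ENSMUSG00000029188.8, chromosome 5, 53429321 to 53462903, plus strand) held only 1 other protein-coding gene, Sel1l3, and the transcript start nearest to each of the 22 regions was one of Slc34a2. Of its 22 regions, 15 lay between genes, 5 in introns and 2 in exons, and 0 were within 1 kb of an annotated transcript start. Over all merged regions, 10.2% lay within 1 kb of such a start. In 7 of the 22 regions all 6 libraries had a peak, and 13 were found in all 3 hormone libraries. Of those 13, 11 were also found in at least 1 vehicle library and 2 in none.

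The Slc34a2 region with the highest mean list position over the 6 libraries lay in an intron 4.92 kb downstream of the start (chr5:53434074-53434414). Its list percentile, where 100 is the first peak of a library, was 99.1, 99.3 and 98.9 in 1,25(OH)2D3 replicates 1, 2 and 3 and 96.9, 98.1 and 99.6 in vehicle replicates 1, 2 and 3. In 1,25(OH)2D3 replicate 3 the regions 7.40 kb downstream and 37.7 kb upstream of the start stood above it. The 6 peak centres lay within 54 bp of one another. A DR3 with 1 mismatch lay 19 bp from its centre, in capitals in the first sequence above. An upstream region 37.7 kb before the start (chr5:53391480-53391821) was at 98.8, 98.0 and 98.99 with hormone and 94.3, 96.0 and 98.6 with vehicle. It held no DR3 with fewer than 3 mismatches.

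An intronic region 5.91 kb downstream of the start had peaks only in replicate 3 of each group, at 93.1 with hormone and 91.9 with vehicle. A further intronic region, found in all 6 libraries, lay 7.40 kb downstream of the start (chr5:53436546-53436898). Its percentiles were 96.8, 98.1 and 99.2 with hormone and 79.9, 66.1 and 93.8 with vehicle. Since list lengths differ, these positions do not measure a change in binding. This region held the letters AGATAA of a GATA motif, TGANTCA of an AP-1 motif and a DR3 with 2 mismatches.

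A group of 3 regions present in all 6 libraries lay just past the 3′ end of Slc34a2, at 2.13, 3.21 and 7.0 kb beyond it (chr5:53464836-53465229, chr5:53465955-53466268 and chr5:53469688-53470107). The middle one was placed highest of the 3 in each library, at percentiles of 96.5 to 97.7 with hormone and 88.5 to 96.7 with vehicle. None of the 3 held a DR3 with fewer than 2 mismatches. Further on, a region 64.0 kb from the start (chr5:53493106-53493436), between Slc34a2 and Sel1l3, was also found in all 6 libraries, at 94.6 to 97.7 with hormone and 85.9 to 95.5 with vehicle. Its DR3 had 1 mismatch and contained the letters TTTATG of a CDX motif, so these matches overlap.

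Both regions at Slc34a2 that were found in all 3 hormone libraries and no vehicle library (hormone-only) stood lower in the lists. The one 14.9 kb upstream (chr5:53414262-53414596) had percentiles of 80.4, 55.5 and 71.4 in 1,25(OH)2D3 replicates 1, 2 and 3. It was the only region among all 72 that held a DR3 with 0 mismatches, 4 bp from its centre, and 1.64% of all merged regions held one. The other, 81.3 kb downstream in an intron of Sel1l3 (chr5:53510447-53510804), was at 35.4, 14.0 and 37.7. The 4 remaining regions in all 3 hormone libraries, at 47.1 and 19.6 kb upstream and 46.3 and 72.2 kb downstream, had peaks in 1 or 2 vehicle libraries. Of the 7 regions found in 1 library only, 5 were from 1,25(OH)2D3 replicate 3, the deep library.

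**Figure D4:**
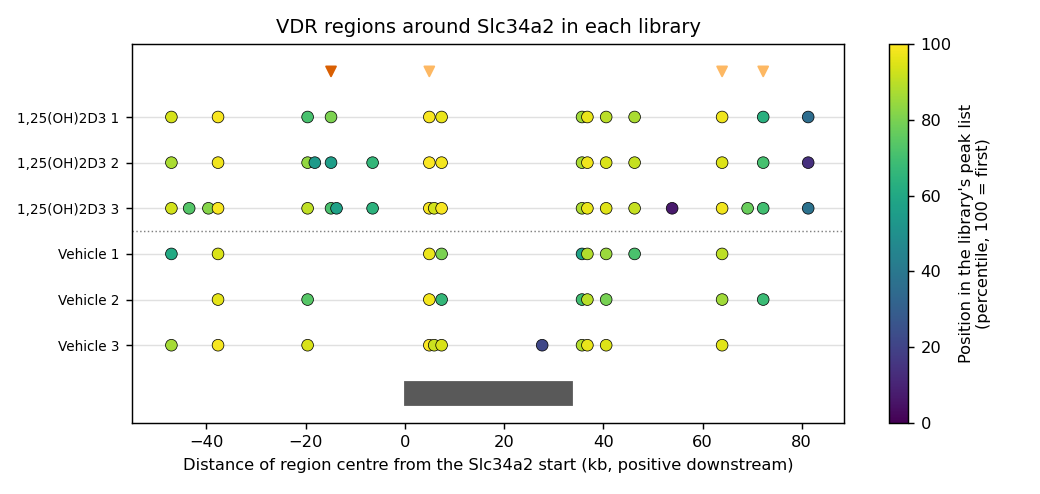
Regions around Slc34a2 by library, with distance of the region centre from the gene start in kb; colour is the position of the peak in that library's list (percentile, 100 = first), the grey bar is the gene body, and triangles mark regions with a DR3 of 0 (dark) or 1 (light) mismatch. The intronic pair at 4.92 and 7.40 kb and the group past the 3′ end recur in all 6 libraries, while the dark triangle stands over a region seen with hormone only.

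Slc34a1 (ENSMUSG00000021490.9, chromosome 13, 55501009 to 55516056, plus strand) had 3 regions in all 6 libraries, all upstream. Those at 8.89 and 7.83 kb (chr13:55491942-55492304 and chr13:55492992-55493375) lay between genes, with Slc34a1 as the nearest start. The region at 7.83 kb was at percentiles of 86.9, 80.7 and 84.2 with hormone and 80.9, 87.7 and 89.5 with vehicle, so its places overlapped. The other, at -24.9 kb from the start (chr13:55475984-55476319), was in an intron of Rgs14, which encodes a regulator of G-protein signalling. A hormone-only region at -29.3 kb (chr13:55471544-55471931) lay 0.606 kb from a start of Rgs14, at 64.4, 81.6 and 80.8, with a DR3 of 1 mismatch. At the start of Slc34a1 itself a region centred 0.290 kb downstream (chr13:55501002-55501595) was found in all 3 hormone libraries, at 23.6, 29.9 and 32.0, and in vehicle replicate 2, at 12.6. It stood low in every list that held it.

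Slc34a3 (ENSMUSG00000006469.7, chromosome 2, 25084418 to 25089884, minus strand) is a short gene in a crowded neighbourhood, with 14 other protein-coding genes reaching into its window. Of its 15 regions, 8 (53.3%) lay within 1 kb of a transcript start, and for 7 of them the nearest start was a neighbour's. The single region in all 6 libraries, 10.4 kb downstream of the Slc34a3 start (chr2:25079206-25079683), lay in Tubb2c, a tubulin gene, 0.729 kb from its start. It stood at 71.5, 85.3 and 87.2 with hormone and 87.7, 76.4 and 90.7 with vehicle. The region closest to the Slc34a3 start, 0.419 kb upstream (chr2:25090088-25090517), was found in all 3 hormone libraries, at 52.9, 50.4 and 56.1, and in no vehicle library. It held a DR3 with 1 mismatch and overlapped an exon of the neighbour Gm757. The peak lists cannot assign such a region to either gene.

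Slc20a1 (ENSMUSG00000027397.8, chromosome 2, 129024500 to 129037352, plus strand) had no other protein-coding gene in its window, and 2 regions in all 6 libraries, both far downstream. The one 49.2 kb from the start (chr2:129073512-129073981) was at 93.8, 92.7 and 94.5 with hormone and 93.5, 94.6 and 98.1 with vehicle. Its places were alike in both groups, and its closest DR3 had 3 mismatches. The one at 55.7 kb (chr2:129079990-129080364), at 84.8 to 87.9 with hormone and 61.3 to 91.5 with vehicle, was nearer to the start of Ckap2l. At the start of Slc20a1 only 1 library, 1,25(OH)2D3 replicate 2, had a peak (0.378 kb upstream, percentile 60.2). Of its 11 regions, 6 were found in 1 library.

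Slc20a2 (ENSMUSG00000037656.8, chromosome 8, 23587172 to 23680079, plus strand) had 15 regions, with 0 in all 6 libraries, 0 in all 3 hormone libraries and no vehicle library, and 0 in at least 2 of 3 vehicle libraries. Of the 15, 7 had peaks in 1 or 2 hormone libraries and no vehicle library. A pair of regions, at -49.6 and 131 kb from the start, was found in all 3 hormone libraries, and both also had a peak in vehicle replicate 3. The region 0.686 kb downstream of the start (chr8:23587667-23588049) had peaks in 1,25(OH)2D3 replicates 2 and 3, at 69.5 and 67.4, with a DR3 of 1 mismatch. It lay closer still, at 0.507 kb, to the start of the neighbour AI316807. A region 0.936 kb upstream (chr8:23586092-23586380) had a peak in 1,25(OH)2D3 replicate 2 only, at 46.9.

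**Figure D5:**
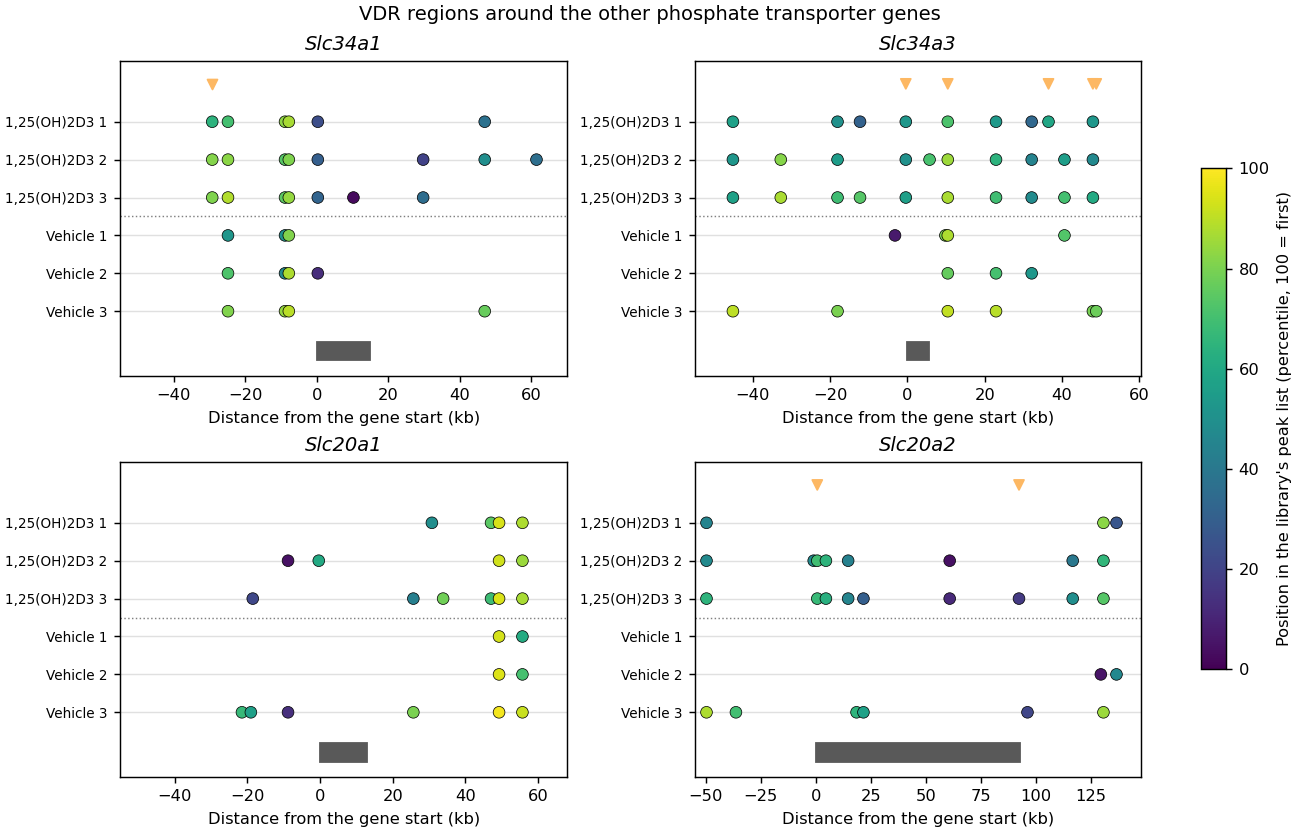
Regions around Slc34a1, Slc34a3, Slc20a1 and Slc20a2 by library, with distance from the gene start in kb; colours (list percentile), grey gene bodies and light triangles (DR3 with 1 mismatch) are as for Slc34a2. Columns of peaks in all 6 libraries lie upstream of Slc34a1, far downstream of Slc20a1 and 10.4 kb downstream of the Slc34a3 start. Slc20a2 shows none.

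Over all 72 regions, 13 (18.1%) were in all 6 libraries, against 4.99% of all merged regions, and 7 of the 13 were at Slc34a2. Hormone-only regions numbered 4 (5.56%, against 5.39%), a share near that of the genome. Vehicle-only regions numbered 0, against 0.0299%. A smaller share than in the genome was found in 1 library only (36.1%, against 62.6%). The hormone-only number was 12 without 1,25(OH)2D3 replicate 1, 9 without vehicle replicate 3, 7 without vehicle replicate 2 and 0 in lists of equal length. In such lists 11 regions were found in all 6 libraries.

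A DR3 with at most 1 mismatch lay within 100 bp of the centre of 12 of the 72 regions (16.7%, 95% Wilson interval 9.80 to 26.9), against 10.9% of all merged regions. By gene, these were 5 at Slc34a3, 4 at Slc34a2, 2 at Slc20a2, 1 at Slc34a1 and 0 at Slc20a1. Among the 13 regions in all 6 libraries, 3 held one, against 28.1% of such regions in the genome, and among the 4 hormone-only regions 3 held one, against 20.6%. With so few regions these shares have wide intervals, 8.18% to 50.3% for the 13 and 30.1% to 95.4% for the 4. Of the other motifs, searched without mismatches on both strands, the GATA motif AGATAA was in 16 of the 72 regions (22.2%, against 18.4% of all regions). The CDX motif TTTATG was in 12 (16.7%, against 16.2%). The AP-1 motif TGANTCA was in 5 (6.94%, against 10.9%). The HNF4 motif CAAAGTCCA was in 2 (2.78%, against 1.57%). A match describes the letters in the window and shows no binding of the factor.

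The genes whose peak numbers were most like those of Slc34a2, by Euclidean distance over the 6 libraries and at least 1 Mb away, were Tcf7l2, 9930013L23Rik and Slc5a4b, at distances of 2.65, 3.74 and 4.12 peaks. Tcf7l2, a transcription factor of Wnt signalling, had 14, 16 and 22 peaks in hormone libraries and 9, 10 and 11 in vehicle libraries. The other two had 13, 13 and 19 (9930013L23Rik) and 14, 14 and 19 (Slc5a4b) with hormone, and 7, 7 and 12 and 6, 8 and 13 with vehicle.

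Other genes of phosphate handling were a mixed group. Of 22, 18 had a region in at least 2 of 3 hormone libraries within 50 kb. The share of all genes with such a region is not given here. More peaks in every hormone library than in any vehicle library were found at 3 of the 22 (13.6%, against 16.0% of all genes), and fewer at 0. The median difference of the list was 1.67 peaks per library, against 0.667 over all genes. Its genes also had more peaks, with medians of 3.33 with hormone and 1.83 with vehicle, against 2.33 and 1.33 over all genes. The 3 were Akp3, Alpl and Kl. Akp3, an alkaline phosphatase of the mouse intestine, had 10, 9 and 12 peaks in hormone libraries and 2, 8 and 6 in vehicle libraries. Its neighbour Alpi, which shares peaks with it, had 8, 9 and 10 with hormone and 3, 8 and 4 with vehicle, so its groups overlapped. Kl, which encodes the co-receptor klotho of the phosphate-lowering hormone FGF23, had 4, 6 and 6 with hormone and 1, 1 and 3 with vehicle. Alpl, the phosphatase of bone and other tissues, had 2, 2 and 4 with hormone and 1, 0 and 1 with vehicle.

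The scaffold gene Pdzk1, whose protein binds NaPi-IIa in the kidney, had the most regions of this list in at least 2 of 3 hormone libraries, 11. Its peaks numbered 10, 11 and 15 with hormone and 6, 11 and 9 with vehicle. Ank, a gene of pyrophosphate transport, had 12, 10 and 13 with hormone and 7, 7 and 15 with vehicle. Xpr1, the phosphate exporter, had 6, 6 and 7 with hormone and 1, 3 and 6 with vehicle. The groups overlapped at all 3 genes. Lower means with hormone were found at 3 genes, named here after their values were seen, and their groups overlapped. Fgf23 and Mepe, known for expression in bone, had 0 peaks in each hormone library, against 0, 0 and 1 (Fgf23) and 0, 1 and 2 (Mepe) in vehicle replicates 1, 2 and 3. Slc17a3 had 1, 0 and 1 with hormone and 0, 0 and 4 with vehicle.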

How the data were processed

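VDR ChIP-seq peak lists of 6 libraries, 3 per group by their titles, were used. Per the submitters' processing notes, Bowtie, HOMER and the build mm9 were used; versions are not given in the sources used here. HOMER settings per the file headers were a separate call for every library over 1 shared input, a false discovery rate of 0.001, 4-fold over input and over the surrounding 10 kb, a Poisson p of 0.0001 and a clonal limit of 2. The input label carries the hormone dose, and the input itself was not analysed here. Other deposited columns hold peak starts and ends in bases. The deposited score column is 1 for every peak and ranks nothing, so a peak's place in its list, as a percentile, was used instead. Which sequencer ran which library is not given.

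Peaks of the 19 autosomes and both sex chromosomes were merged when they shared at least 1 bp. Genes and sequence came from GENCODE mouse version M1 on NCBIM37 (mm9); all peaks lay inside its chromosomes. A symbol with several records kept the longest. Ankh was matched as Ank through RefSeq synonyms (GRCm38.p6). Motifs were searched within 100 bp of each centre. Exact two-sided permutation tests were run over all 22225 genes and tested on simulated data. Regions named are those in all 6 libraries, in 1 group only (all 3 libraries), or within 1 kb of a member's start. Members, lists, windows and rules were chosen with earlier results of these data known. Where genes of the phosphate list tied for sixth place by number of regions, none was named for it. Analyses used Python 3.11.15, numpy 2.4.6, pandas 2.3.3 with scipy 1.17.1 and matplotlib 3.10.9.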

Additional observations from a re-analysis of the deposited data

How the results depend on the processing

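Of 136 values under other settings, 115 were counted as kept, 16 as moved and 5 as turned round. Differences between groups were judged by direction alone, so a kept difference could be of any size. A difference of 0 at Slc20a1 in replicate 3 only was also counted as kept. Only numbers of regions or genes could count as moved, by a change of more than 1.5 times. The count of kept values is therefore no measure of how stable the size of a difference was. With lists of equal length the difference turned round at Slc34a3 (-1.67 peaks) and Slc20a2 (-0.667), and per 10000 peaks of the library it did at Slc34a1 (-0.0922), Slc34a2 (-1.26) and Slc20a1 (-0.181). For the 5 genes together it was 0.333 and 0.0618 under these settings, against 20.3 peaks with whole lists, and both were counted as kept. How far list length sets the differences was not tested beyond this. Leaving out each library gave differences of 16.3 to 25.0 for the 5 genes, 4.33 to 7.83 for Slc34a2, 2.83 to 3.83 for Slc34a1, 4.67 to 6.17 for Slc34a3, 0.667 to 2.67 for Slc20a1 and 2.67 to 5.83 for Slc20a2. Hormone-only regions then numbered 4 to 12, those in all 6 libraries 13 to 15, and genes of the genome with more peaks in every hormone library 3648 to 9404 (3566 with all libraries; 5700 without 1,25(OH)2D3 replicate 1, 9404 when vehicle replicate 3 was left out). That number was 899 with lists of equal length, 1785 with the first 50% of each list and 2233 per 10000 peaks. Hormone-only regions numbered 2 within 20 kb, 0 with equal lists, 10 in replicates 1 and 2 only and 28 in replicate 3 only. Regions shared by all libraries used numbered 8 within 20 kb and 24 in replicate 3 only, where vehicle-only regions numbered 9. Allowing 2 mismatches, 38 regions held a DR3, against 12. Across merged regions, libraries of equal replicate number did not deviate together (r = -0.113, 0.000983 and -0.184), and the numbers were not taken as pairs. The 5-gene peak numbers did rise with replicate number in both groups, at 35, 45 and 52 with hormone and 18, 20 and 33 with vehicle. The correlations across all regions therefore cannot decide whether the 5-gene numbers go in pairs. Depth was shared by number, since replicate 3 was the deepest library in both groups. With the replicate number as a block, the 5-gene difference stayed 20.3 (exact sign-flip p = 0.25, the smallest that 3 pairs can give). The exact permutation test cannot pass 0.05 at 3 against 3, so its p-values say nothing on stability.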
